A study of Homo sapiens with 20 samples.

Results

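miR-221 and miR-222 are human microRNAs (miRNAs) cut from neighbouring hairpins of the same primary transcript on the X chromosome. The 4 mature strands described here, miR-221-3p, miR-221-5p, miR-222-3p and miR-222-5p, were selected by name from tables that list 2588 mature miRNAs. Each of the 4 is listed under 1 hairpin only, so its reads can be assigned to that hairpin. miRNAs were counted by small RNA sequencing in 20 libraries of 8 groups. In HCT116, a colon cancer line, DROSHA knockout cells carried full-length DROSHA (3 libraries), DROSHA-p140 (3 libraries) or GFP (1 library), and wild-type cells were untreated (1 library) or cultured with fetal bovine serum (FBS) at 9.1% or, as a starved state, at 0.1% for 72 hr (3 libraries each). In HEK293E, a line from human embryonic kidney cells, DROSHA knockout cells carried full-length DROSHA or DROSHA-p140 (3 libraries each), so both rescue proteins were compared on a knockout background. The labels do not say whether a knockout line is a single clone, how much rescue protein the cells made, or whether replicates were separate cultures, and p-values therefore measure the spread between these libraries, which may be technical.

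DROSHA is the nuclear enzyme that frees a hairpin from its primary transcript, after which DICER releases a duplex of a 5p and a 3p strand and one of them is usually kept. The p140 form is shorter, and the series' title places the study's interest in the proline-rich disordered domain of DROSHA and in miRNAs that lie in introns. miR-221-3p and miR-222-3p share their seed, the stretch that pairs with target messenger RNAs, and are known for repressing CDKN1B, which encodes the cell cycle inhibitor p27, and the receptor KIT. They are abundant in many epithelial cancers and are linked there to proliferation, which is the background to looking at them in serum-starved cells.

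Both hairpins lie on the minus strand of chromosome X in hg38, inside an intron of the long noncoding RNA gene MIR222HG. The MIR222 hairpin (chrX:45747015-45747124) is transcribed before the MIR221 hairpin (chrX:45746157-45746266), and 748 bases separate them. The intron runs over 23685 bases (chrX:45746101-45769785), and the MIR221 hairpin ends 56 bases before the next exon, against 914 bases for the MIR222 hairpin. The mature strands are miR-221-3p at chrX:45746180-45746202, miR-221-5p at chrX:45746221-45746242, miR-222-3p at chrX:45747036-45747056 and miR-222-5p at chrX:45747073-45747094. Mature sequences of 3 of the 4 strands were found in the RefSeq table (GRCh38.p14), and are printed to show which bases the hairpins share, with the seed (bases 2 to 8) in capitals.
miR-221-3p: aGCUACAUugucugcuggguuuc
miR-222-3p: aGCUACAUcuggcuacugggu
miR-222-5p: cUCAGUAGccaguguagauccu
The 3p strands are the same over their first 8 bases and at 11 of the 21 positions that both have. Of 2281 mature miRNAs with a sequence in that table, these 2 alone carry this seed. Counted miRNAs with no sequence there were not checked. The hairpins that DROSHA cuts are shown next, each 110 bases long and with its 3p strand in capitals, because all comparisons of the 2 hairpins rest on how these neighbours were processed and counted.
MIR222: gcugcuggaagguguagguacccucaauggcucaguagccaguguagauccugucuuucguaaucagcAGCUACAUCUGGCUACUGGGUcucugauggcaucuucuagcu
MIR221: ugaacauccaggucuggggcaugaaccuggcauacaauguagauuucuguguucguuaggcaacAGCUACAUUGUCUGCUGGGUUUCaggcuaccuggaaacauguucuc
Reads are not molecules, since adaptor ligation and amplification favour some sequences, so a ratio between strands is read here for how it changes between groups and not for its absolute size.

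The libraries held 38288 reads of mature miRNAs (knockout with GFP) to 2822317 reads (0.1% FBS, replicate 3). Replicate 3 stood apart in the HCT116 knockout and serum groups. A chi-square per degree of freedom over miRNAs lay between 36.4 and 88.9 for pairs with replicate 3 there, against 3.57 to 8.29 for replicates 1 and 2. A list of 23 miRNAs whose biogenesis is known to bypass DROSHA, such as the mirtron miR-877-5p and the capped miR-484 and miR-320a, took 0.994% of reads in 9.1% FBS, 1.18% in 0.1% FBS and 1.27% in untreated wild-type cells. In knockout cells it took 69.7% with GFP, 4.09% with full-length DROSHA and 15.7% with p140 in HCT116, and 11.3% and 17.7% in HEK293E. The p140 libraries of HCT116 spread widely around their mean, at 21.0%, 18.9% and 7.05% in replicates 1 to 3. Summed over 6 epithelial miRNAs, levels were 68087 to 92617 reads per 1000000 miRNA reads (CPM) in wild-type HCT116 libraries. They were 23116 to 34262 CPM in rescued HCT116 libraries and 1940 to 3124 CPM in HEK293E. Of these markers, miR-200c-3p and miR-141-3p were far lower in the full-length rescue than in 9.1% FBS, as given below. Of 11 miRNAs of blood, endothelium, muscle, neural tissue and liver, 3 to 10 had reads in a group, with summed levels of 235 to 4223 CPM. Of these, miR-223-3p, the marker of myeloid blood cells, was at 0 in the 4 groups of rescued cells. Most other members, those of blood among them, did have reads there: 9 of the 11 in HCT116 with p140 and 10 in each other rescued group. DROSHA itself is not measured in these tables.

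The 4 strands together made up a large part of all miRNA reads wherever DROSHA was present. They took 20.3% ± 1.44 (SD, n = 3) of reads in 9.1% FBS, 18.7% ± 1.05 in 0.1% FBS, 13.8% ± 0.540 in HCT116 with p140 and 11.6% ± 1.52 in HCT116 with full-length DROSHA. The share was 10.9% in the untreated wild-type library, 10.5% ± 1.04 in HEK293E with p140, 8.89% ± 0.765 in HEK293E with the full-length protein and 1.79% in the knockout with GFP. In the order of these shares, the libraries of 9.1% and 0.1% FBS overlapped, untreated wild type lay within the range of HCT116 with full-length DROSHA and within that of HEK293E with p140, and the 2 HEK293E groups overlapped. Between 0.1% FBS and p140, between p140 and full-length DROSHA in HCT116, and above the knockout with GFP there was no overlap.

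miR-222-3p was the most abundant of the 4 strands in every library. It ranked 2 or 3 among all miRNAs in each HCT116 library with DROSHA. Its mean level was 115825 ± 11564 CPM (SD, n = 3) in 9.1% FBS, 113260 ± 10387 in 0.1% FBS, 98581 ± 6404 in HCT116 with p140 and 69235 ± 10600 under the full-length rescue. It was 64843 CPM in untreated wild type. In HEK293E it was 56378 ± 6345 CPM with p140 and 46581 ± 3849 CPM with the full-length protein, against 10865 CPM in the knockout with GFP. The order of the groups for miR-221-3p was another one: 81247 ± 2446 CPM in 9.1% FBS, 70063 ± 517 in 0.1% FBS, 46193 ± 4086 in HEK293E with p140, 43102 ± 4622 in HCT116 with full-length DROSHA, 42513 in untreated wild type, 39770 ± 4278 in HEK293E with full-length DROSHA, 35104 ± 769 in HCT116 with p140 and 6686 in the knockout with GFP. HCT116 with p140 thus ranked 3 of 8 for miR-222-3p and 7 of 8 for miR-221-3p. Neighbours in the order of miR-221-3p overlapped from HEK293E with p140 down to HCT116 with p140, and did not elsewhere.

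The 5p strands were the minor products of both hairpins. miR-222-5p ranged from 209 CPM in the knockout with GFP, where it rests on 8 reads, through 1104 CPM in untreated wild type to 4808 ± 513 CPM (SD, n = 3) in 9.1% FBS. miR-221-5p ranged from 104 CPM (4 reads) through 341 CPM to 1098 ± 94.0 CPM in the same groups. Untreated wild type was the lowest group with DROSHA for both 5p strands, although its 3p strands lay near those of HCT116 with full-length DROSHA.

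**Figure D1:**
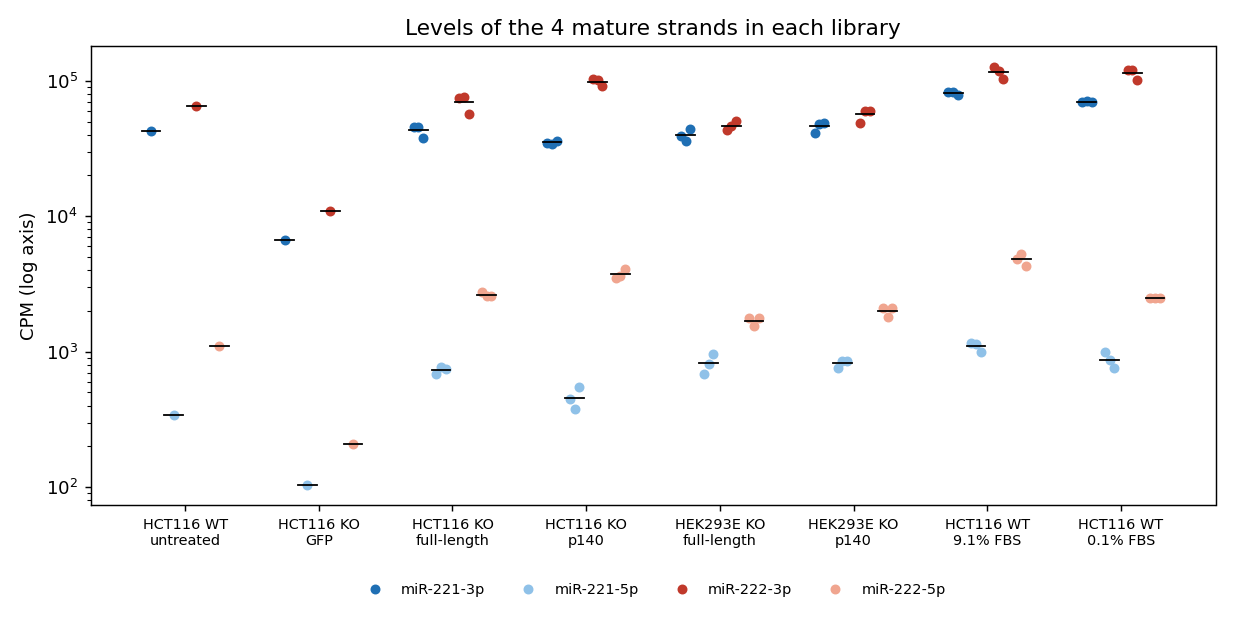
Level of each mature strand in each of the 20 libraries, by group, in CPM on a log axis. Points are libraries and black bars are group means. miR-222-3p lies above miR-221-3p in every library, the gap is widest in HCT116 with p140, and all 4 strands are lowest in the knockout with GFP.

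Because both 3p strands are counted in the same library, their ratio does not depend on how libraries are scaled. In HCT116 with full-length DROSHA the ratio of miR-221-3p to miR-222-3p was 0.609, 0.606 and 0.663 in replicates 1 to 3. In HCT116 with p140 it was 0.339, 0.340 and 0.393. All p140 libraries lay below all full-length libraries, and this was the lowest of the 8 groups with no overlap to the next. The geometric mean fell 1.75-fold, by 0.81 on the log2 scale, and pairs of the same replicate number fell by 0.84, 0.83 and 0.75, so the fall was as large without replicate 3. The two-sided exact permutation test gave p = 0.1, the smallest that 3 libraries against 3 can give.

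In HEK293E the 2 groups overlapped. There the ratio was 0.910, 0.777 and 0.876 with full-length DROSHA and 0.846, 0.802 and 0.815 with p140 (log2 difference -0.05, exact permutation p = 0.5). Pair by pair the log2 differences were -0.10, 0.05 and -0.10. The p140 effect on the log2 ratio was 0.76 higher in HEK293E than in HCT116, from the 3 pair differences of each line. These did not overlap (exact permutation p = 0.1, again the smallest possible). How many other neighbouring hairpin pairs differ in this way between the lines was not computed. Over all such pairs the median size of the p140 change was 0.64 in HCT116 and 0.14 in HEK293E. With full-length DROSHA the ratio of miR-221-3p to miR-222-3p was also 1.36-fold higher in HEK293E than in HCT116 (log2 difference 0.45). The groups did not overlap (exact permutation p = 0.1). Groups did not overlap in 37.9% of the 29 neighbouring pairs compared there, whose median size was 0.39, and 11 of them moved by more. Line and everything else that separates these cultures cannot be told apart.

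In wild-type HCT116 cells the ratio stayed near that of the full-length rescue. The untreated library stood at 0.656, with a 95% counting interval of 0.647 to 0.664 (Clopper-Pearson, from the share of miR-221-3p among both 3p strands). Intervals of this kind cover counting error only. The knockout with GFP stood at 0.615 (0.525 to 0.721), an interval that holds the untreated value. In 9.1% FBS it was 0.656, 0.701 and 0.757 and in 0.1% FBS 0.582, 0.593 and 0.692, overlapping groups (log2 difference -0.18, exact permutation p = 0.2). Each same-numbered pair was lower in 0.1% FBS, by -0.17, -0.24 and -0.13 on the log2 scale. Against 9.1% FBS, the full-length rescue differed by -0.17, also with overlap (exact permutation p = 0.2).

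**Figure D2:**
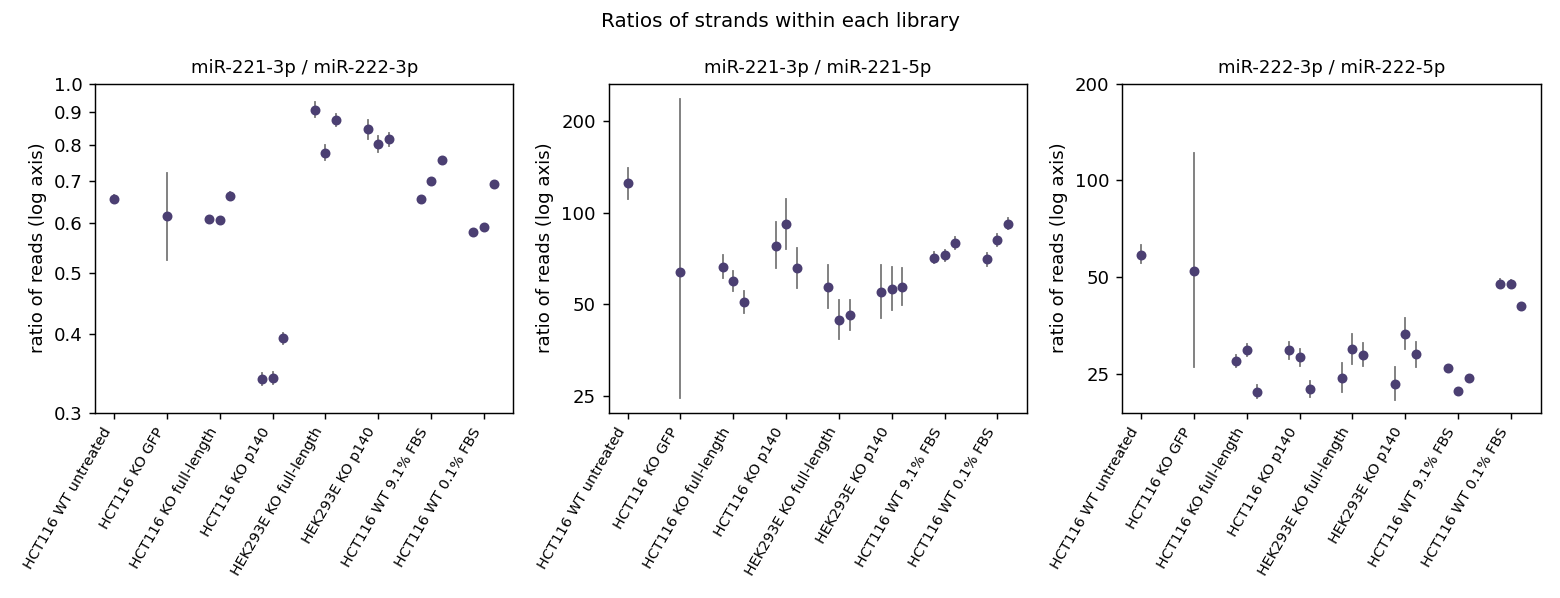
Ratio of reads of miR-221-3p to miR-222-3p, of miR-221-3p to miR-221-5p and of miR-222-3p to miR-222-5p in each library, on log axes. Points are libraries in the order of their replicate numbers and lines are 95% counting intervals. HCT116 with p140 is low in the left panel (0.339 to 0.393), and in the right panel 0.1% FBS (40.5 to 47.7) lies above 9.1% FBS (22.1 to 26.1).

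A change of this kind was common among neighbouring hairpins in HCT116. Over the 28 pairs of neighbouring hairpins within 1 kb whose main strands passed the filter, the median size of the change from full-length DROSHA to p140 was 0.64 on the log2 scale (quartiles 0.33 and 0.91), and 9 pairs moved by more than the 0.81 of this pair. Groups did not overlap in 39.3% of these pairs. Pairs of the same cluster can share a strand, so the 28 pairs are not independent of each other. The 9 that moved by more include pairs of low abundance, down to 40.3 CPM. In HEK293E the median over 26 pairs was 0.14, and 20 pairs moved by more than the 0.05 of this pair. Among the pairs nearest in abundance, the ratio of miR-19a-3p to miR-20a-5p, of the proliferation-linked miR-17/92 cluster, fell by 2.25 in HCT116 and by 0.71 in HEK293E. The ratio of miR-25-3p to miR-93-5p fell by 0.85 and by 0.14, and that of miR-17-5p to miR-18a-5p rose by 1.02 and by 0.14. That of miR-93-5p to miR-106b-5p rose by 0.34 and by 0.08, with overlap in both lines. That of miR-27a-3p to miR-23a-3p changed by 0.01 and -0.11. These nearest pairs were still less abundant, at 6693 to 15324 CPM (geometric mean of both strands) against 66185 CPM for miR-221-3p and miR-222-3p.

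**Figure D3:**
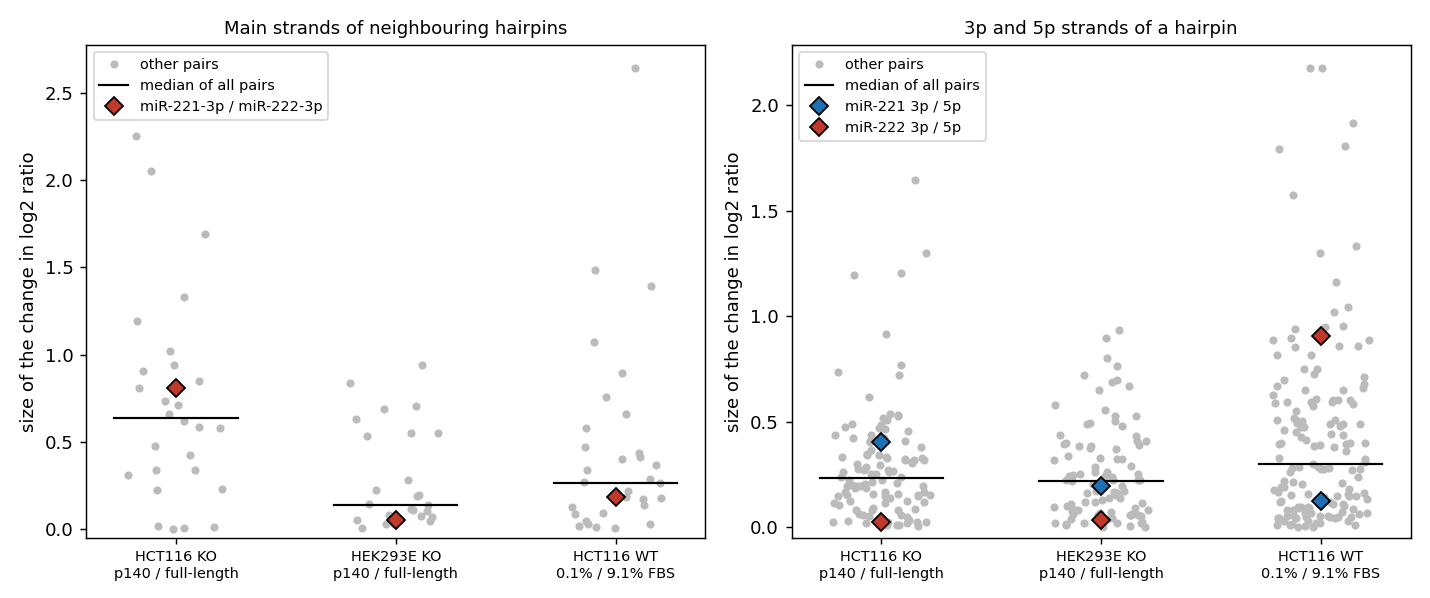
Size of the change in the log2 ratio of 2 strands, for main strands of neighbouring hairpins (left) and for the 3p and 5p strand of a hairpin (right), in 3 comparisons. Grey points are other pairs, black bars are medians of all pairs and diamonds are the ratios of miR-221 and miR-222. The 2 hairpins changed by 0.81 in HCT116 and 0.05 in HEK293E, and the strand ratio of miR-222 changed by 0.90 with serum.

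In HCT116 the strands of the 2 hairpins moved in opposite directions relative to other miRNAs. miR-221-3p was at 45719, 45821 and 37765 CPM with full-length DROSHA and at 35002, 34391 and 35919 CPM with p140, lower in every p140 library. miR-222-3p was at 75123, 75584 and 56999 CPM with full-length DROSHA and at 103309, 101141 and 91294 CPM with p140, higher in every p140 library. miR-221-5p went from 689, 770 and 743 CPM to 449, 376 and 547 CPM. miR-222-5p went from 2754, 2557 and 2598 CPM to 3497, 3599 and 4079 CPM. For each of the 4 strands the groups did not overlap, which was so for 65.7% of the 446 miRNAs tested.

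edgeR's quasi-likelihood test with TMM scaling and Benjamini-Hochberg adjustment over all miRNAs gave log2 fold changes of -0.38 ± 0.10 (SE, adjusted p = 0.016) for miR-221-3p and -0.78 ± 0.18 (adjusted p = 0.0092) for miR-221-5p. It gave 0.44 ± 0.14 (adjusted p = 0.026) for miR-222-3p and 0.41 ± 0.11 (adjusted p = 0.016) for miR-222-5p. Without the filter on low counts neither strand of miR-222 was called, at 0.11 each (adjusted p = 0.64 and 0.74). The test called 59.6% of all miRNAs (31.2% lower and 28.5% higher), and the 4 of 4 strands called are to be read against that share. The calls of miR-222 rest on few libraries: that of miR-222-5p was lost without any 1 of the 6 libraries (edgeR adjusted p 0.055 to 0.11). That of miR-222-3p was lost without any 1 library other than p140 replicate 3, and without full-length replicate 3 its log2 fold change was 0.19 (adjusted p = 0.27). miR-221-3p lost its call without replicate 2 of either group (adjusted p = 0.057 and 0.073) and with DESeq2 (-0.28, adjusted p = 0.21), while miR-221-5p kept its call without each library in turn. Without replicate 3 of both groups, the libraries that stood apart, all 4 were called by edgeR, at -0.50 (adjusted p = 0.00019) for miR-221-3p, -0.92 (9.3e-05) for miR-221-5p, 0.34 (0.0033) for miR-222-3p and 0.32 (0.016) for miR-222-5p.

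The direction for miR-222 depends on what the libraries are scaled to. The median log2 fold change of all miRNAs moved by -1.52 when libraries were scaled to the summed DROSHA-independent list in place of TMM, and 100% of the 170 calls were then lower, against 52.3% of 266 with TMM. On that scale miR-221-3p and miR-221-5p stayed lower, miR-222-3p was at -1.18 (adjusted p = 0.094) and miR-222-5p at -1.14 (adjusted p = 0.19). Per 1000 reads of the list, miR-222-3p stood at 1748 ± 295 (SD, n = 3) reads with full-length DROSHA and 774 ± 453 with p140, and miR-221-3p at 1100 ± 243 and 286 ± 194. Replicate 3 was the highest p140 library for both (1296 and 510 reads). The tables hold no spike-in values, and in RNA from whole cultures fewer cells of a type and less RNA per cell cannot be told apart.

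In HEK293E all 4 strands were fitted above 0 with TMM, and 0 of 4 passed edgeR's test (1 at an unadjusted p under 0.05). DESeq2 also called 0 of 4, with 3 at an unadjusted p under 0.05. miR-221-3p stood at 39057, 35893 and 44359 CPM with full-length DROSHA and at 41493, 48184 and 48901 CPM with p140, overlapping groups (log2 fold change 0.30 ± 0.14 SE, edgeR adjusted p = 0.15). miR-222-3p stood at 42941, 46192 and 50610 CPM and at 49051, 60101 and 59982 CPM, also overlapping (0.36 ± 0.13, adjusted p = 0.07). The minor strands had log2 fold changes of 0.09 ± 0.19 for miR-221-5p (adjusted p = 0.78) and 0.32 ± 0.16 for miR-222-5p (adjusted p = 0.18). Over all miRNAs 26.4% were called (21.2% lower and 5.29% higher). The groups did not overlap in CPM for miR-222-5p alone of the 4 strands, and for 38.9% of all miRNAs. With the replicate number as a block, miR-221-3p (0.30, adjusted p = 0.03), miR-222-3p (0.35, adjusted p = 0.0091) and miR-222-5p (0.32, adjusted p = 0.037) passed, and so did 183 miRNAs in place of 110, or 44% of those tested. Without p140 replicate 1, miR-221-3p and miR-222-3p passed in the fit without the block. Scaled to the DROSHA-independent list, the 4 log2 fold changes were below 0 (-0.37 to -0.64), the median of all miRNAs moved by -0.70, and 98.1% of calls were lower, against 80.0% with TMM.

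The fitted p140 effect of each strand was also compared between the lines. Its log2 difference, HEK293E minus HCT116, was 0.63 ± 0.20 (SE) for miR-221-3p and 0.81 ± 0.28 for miR-221-5p, against -0.12 ± 0.22 for miR-222-3p and -0.15 ± 0.20 for miR-222-5p. None passed edgeR's interaction test (adjusted p = 0.12, 0.14, 0.84 and 0.77), which called 3.3% of 515 miRNAs. At an unadjusted p under 0.05 it gave 2 of the 4 strands, those of miR-221, and DESeq2 called 0 of 4. With the replicate number within each line as a block, miR-221-3p (adjusted p = 0.0043) and miR-221-5p (adjusted p = 0.008) passed and the strands of miR-222 did not, while 19.8% of miRNAs were called. Without full-length replicate 3 of HEK293E, miR-221-3p passed without the block (0.93, adjusted p = 0.037), as did miR-221-5p (1.18, adjusted p = 0.044). miR-221-5p also passed without p140 replicate 3 of HCT116 (0.94, adjusted p = 0.043). Library totals in place of TMM moved the median of all miRNAs by -0.12 and left 6 higher and 6 lower calls, against 11 and 6 with TMM, and scaling to the list left 0 calls (71 by edgeR at an unadjusted p under 0.05).

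**Figure D4:**
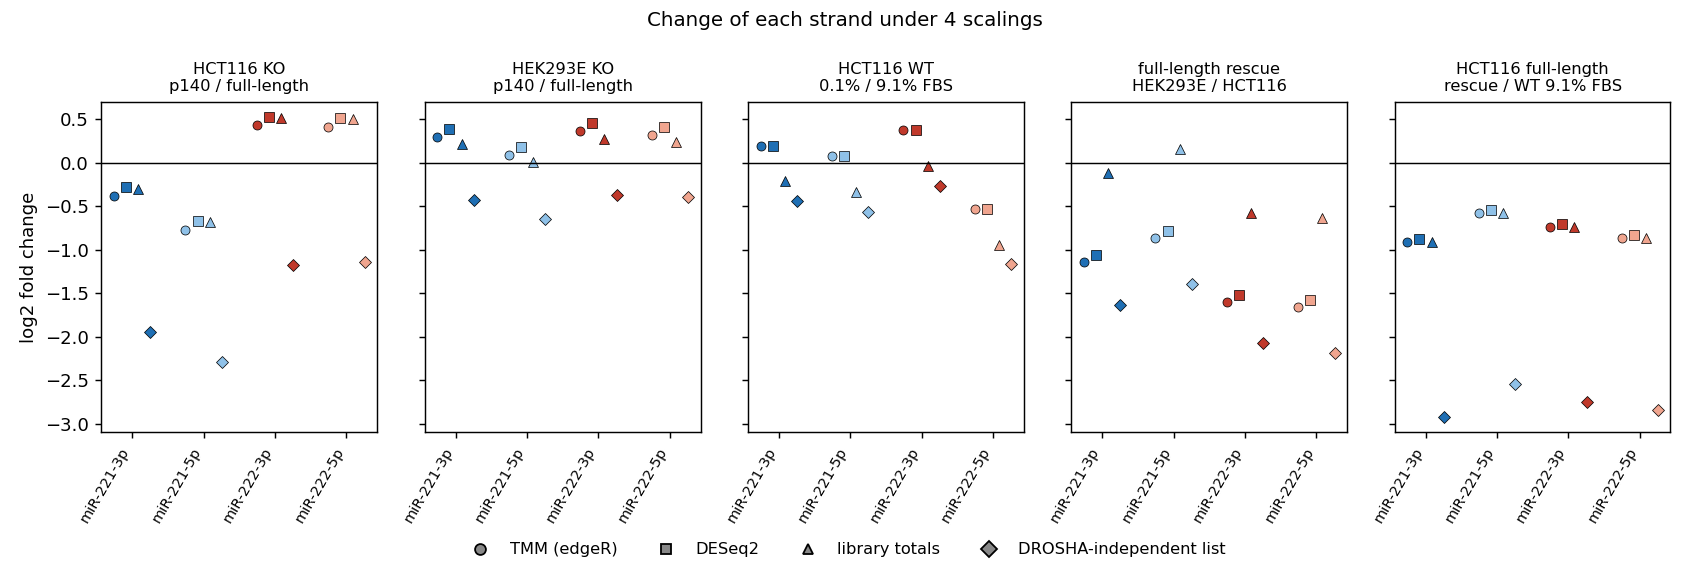
Log2 fold change of each strand in 5 comparisons under 4 ways of scaling the libraries: TMM with edgeR (circles), DESeq2 (squares), library totals (triangles) and the summed DROSHA-independent list (diamonds). Above 0 means higher in the group named first. In HCT116 with p140 the strands of miR-222 lie above 0 under 3 scalings and below 0 on the list scale, while the strands of miR-221 lie below 0 under all 4.

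Between 0.1% and 9.1% FBS miR-222-5p was lower under every scaling, and the ratio of the 2 strands of miR-222 differed with it. The 5p strand stood at 4862, 5293 and 4271 CPM in 9.1% FBS and at 2506, 2502 and 2502 CPM in 0.1% FBS, lower in every library of 0.1% FBS, and in CPM groups did not overlap for 62.2% of miRNAs. The 3p strand stood at 126713, 117074 and 103686 CPM and at 119461, 119051 and 101269 CPM, overlapping groups. The ratio of miR-222-3p to miR-222-5p, free of scaling, was therefore 26.1, 22.1 and 24.3 in 9.1% FBS and 47.7, 47.6 and 40.5 in 0.1% FBS. It rose 1.87-fold (log2 difference 0.90) with no overlap between groups, and pair by pair by 0.87, 1.11 and 0.74 on the log2 scale. The exact permutation test gave p = 0.1, the smallest possible. Among 151 hairpins with both strands past the filter the median size of the change in this comparison was 0.30, 14 hairpins moved by more than miR-222, and groups did not overlap in 33.1%.

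The 3p to 5p ratio of miR-221 was 71.2, 72.3 and 79.2 in 9.1% FBS and 70.2, 81.4 and 92.0 in 0.1% FBS, overlapping groups (log2 difference 0.12, exact permutation p = 0.5), and 107 of the 151 hairpins moved by more. The difference between the 2 hairpins was not tested.

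With TMM scaling, edgeR gave log2 fold changes in 0.1% FBS of -0.54 ± 0.11 (SE, adjusted p = 0.0051) for miR-222-5p and 0.38 ± 0.10 (adjusted p = 0.018) for miR-222-3p. miR-221-3p (0.19 ± 0.08, adjusted p = 0.077) and miR-221-5p (0.08 ± 0.13, adjusted p = 0.67) did not pass. With the replicate block miR-221-3p passed (adjusted p = 0.00071), as it did without replicate 3 of both groups (0.20, adjusted p = 0.02), where miR-222-3p was at 0.40 and miR-222-5p at -0.59. miR-222-3p did not pass in the fit of all 18 replicated libraries (0.20, adjusted p = 0.42). The test called 45.8% of 577 miRNAs (25.5% higher and 20.3% lower), and 63.6% with the block. Scaling decides the sign of 3 strands: with library totals, which moved the median of all miRNAs by -0.41, miR-222-3p was at -0.03 (adjusted p = 0.8), miR-221-3p at -0.21 (adjusted p = 0.033) and miR-221-5p at -0.33 (adjusted p = 0.059), and 77.3% of calls were lower against 44.3% with TMM. miR-222-5p was lower under every scaling, at -0.94 with library totals. On the list scale, which moved the median by -0.63, 91.6% of calls were lower and miR-222-3p was at -0.27 (adjusted p = 0.23). The members of that list did not move together in 0.1% FBS. With TMM, miR-320a, its most abundant member, was at 0.82, against -0.23 for miR-484, -0.37 for miR-877-5p and -0.92 for miR-877-3p. The median of the 9 members tested was -0.37. Over the 18 replicated libraries miR-320a averaged 67722 CPM, against 10821 CPM for miR-484, the next most abundant. How much the list scale owes to miR-320a was not tested, here or in the comparisons of rescued cells.

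The rescue groups of both lines had 3p to 5p ratios of miR-222 close to those in 9.1% FBS, with means of 26.3 ± 3.91 and 26.7 ± 3.79 (SD, n = 3) in HCT116 and of 27.6 ± 2.92 and 28.4 ± 4.99 in HEK293E, for full-length DROSHA and p140 in that order. The ratio in untreated wild type was 58.7 (95% counting interval 55.1 to 62.7), above every library of 0.1% FBS, and in the knockout with GFP it was 52.0 (26.1 to 121), from 8 reads of the 5p strand. For miR-221 the untreated library was also the highest at 125 (111 to 140), and the other 7 groups had ratios of 49.1 to 81.2. Untreated wild type and 9.1% FBS are both unrescued HCT116 cells, yet their strand ratios of miR-222 differed by more than did any rescue group from 9.1% FBS. The untreated library has no replicate.

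From full-length DROSHA to p140 the ratio of miR-222 changed by 0.02 on the log2 scale in HCT116 and by 0.03 in HEK293E, with overlap in both lines (exact permutation p = 0.8 and 0.9). That of miR-221 was 66.4, 59.5 and 50.8 with full-length DROSHA and 77.9, 91.4 and 65.6 with p140 in HCT116, higher in each same-numbered pair but overlapping between groups (log2 difference 0.40, exact permutation p = 0.2). Of 112 hairpins 27 moved by more.

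The knockout with GFP held few reads of either hairpin. miR-221-3p had 256 reads against 36419 in untreated wild type, 6.36-fold lower in CPM (95% interval 5.62 to 7.22, covering counting error only). miR-222-3p had 416 reads against 55548, 5.97-fold lower (5.42 to 6.59). miR-221-5p (4 against 292 reads) was 3.26-fold lower (1.26 to 12.1) and miR-222-5p (8 against 946 reads) 5.29-fold lower (2.67 to 12.3). With 1 library a group there is no test. Of 194 miRNAs with 100 reads in either library 90.7% were more than 2-fold lower, and the median log2 ratio was -2.49, near that of both 3p strands (-2.67 and -2.58). Relative to the DROSHA-independent list, which fills most of the knockout library, miR-221-3p was 350-fold lower and miR-222-3p 329-fold lower.

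How far full-length DROSHA brought the strands back depends on the wild type, the strand and the scale chosen. miR-221-3p in the full-length rescue (37765 to 45821 CPM) bracketed the untreated wild-type library (42513 CPM) but lay below every library of 9.1% FBS (78493 to 83170 CPM). The 5p strands lay above the untreated library in CPM, with means of 734 against 341 for miR-221-5p and 2636 against 1104 for miR-222-5p. Per 1000 reads of the DROSHA-independent list, both 3p strands lay below the untreated library. There miR-221-3p stood at 1100 ± 243 (SD, n = 3) against 3358 reads, and miR-222-3p at 1748 ± 295 against 5122 reads. Against 9.1% FBS, edgeR gave log2 fold changes of -0.91 ± 0.12 (SE, adjusted p = 0.00011) for miR-221-3p, -0.58 ± 0.14 (adjusted p = 0.0056) for miR-221-5p, -0.74 ± 0.14 (adjusted p = 0.0014) for miR-222-3p and -0.86 ± 0.13 (adjusted p = 0.00024) for miR-222-5p. In CPM the groups did not overlap for any of the 4 strands, nor for 64.7% of 566 miRNAs. The test called 58.5% (29.7% lower than in 9.1% FBS), 50.8% of these calls lower with TMM and 96.1% on the list scale, which moved the median by -1.97. Markers of the line moved in the same comparison: miR-200c-3p was at -6.77 and miR-141-3p at -7.36 (edgeR adjusted p = 1.7e-09 and 5.1e-09), 1 epithelial marker was higher and 3 lower of 5 tested, and their summed level was 23116 to 24716 CPM in the full-length rescue against 68175 to 72146 CPM in 9.1% FBS and 68087 CPM in untreated wild type. Their part in the result was not tested. The groups differ in genotype, rescue and culture at once, which cannot be told apart, and the labels name no batch.

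With full-length DROSHA in both lines, all 4 strands were lower in HEK293E than in HCT116 by edgeR with TMM. The log2 differences were -1.14 ± 0.14 (SE, adjusted p = 6.2e-06) for miR-221-3p, -0.86 ± 0.20 (adjusted p = 0.0013) for miR-221-5p, -1.60 ± 0.16 (adjusted p = 5.1e-07) for miR-222-3p and -1.65 ± 0.15 (adjusted p = 1.5e-07) for miR-222-5p. Of 515 miRNAs 61.9% were called (27.4% lower). With library totals, which moved the median of all miRNAs by 1.02 and the share of lower calls from 44.2% to 18.4%, miR-221-3p was at -0.12 (adjusted p = 0.44) and miR-221-5p at 0.16 (adjusted p = 0.49), while both strands of miR-222 were still lower. On the list scale 59.0% of calls were lower, and the median moved by -0.54. In plain CPM the groups overlapped for both strands of miR-221 and did not for those of miR-222, against 78.1% of all miRNAs without overlap.

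Of 5 other miRNAs known to target CDKN1B, 2 were higher and 2 lower with p140 in HCT116 by edgeR, with a median log2 fold change of -0.50 beside -0.11 for all miRNAs tested, of which 59.6% were called. DESeq2 called 3 of the 5. The most abundant of them, miR-181a-5p, was higher (0.51 ± 0.15 SE, adjusted p = 0.017), as was miR-24-3p (0.30 ± 0.11, adjusted p = 0.044), whereas miR-148a-3p (-0.50 ± 0.14, adjusted p = 0.016) and miR-196a-5p (-2.87 ± 0.23, adjusted p = 0.00014) were lower. In HEK293E 0 were higher and 2 lower, where 26.4% of all miRNAs were called, and DESeq2 called 1. In 0.1% FBS 3 were higher and 0 lower (median 0.85 beside -0.03, with 45.8% of all miRNAs called), among them miR-181a-5p (1.07 ± 0.09, adjusted p = 0.0001) and miR-148a-3p (0.85 ± 0.10, adjusted p = 0.00047).

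The counts of the next lists stand beside the same shares of all miRNAs called, 59.6% for p140 in HCT116 (28.5% higher and 31.2% lower), 26.4% in HEK293E (5.29% and 21.2%) and 45.8% in 0.1% FBS (25.5% and 20.3%). Of 11 miRNAs linked to proliferation, 1 was higher and 5 lower with p140 in HCT116 (median -0.31), 0 and 1 in HEK293E (median -0.01), and 3 and 1 in 0.1% FBS (median -0.03). miR-21-5p, the most abundant of them, fell with p140 in HCT116 (-0.83 ± 0.11 SE, edgeR adjusted p = 0.00092) and rose in 0.1% FBS (0.43 ± 0.10, adjusted p = 0.0099). Of 10 miRNAs linked to growth arrest, 1 was higher and 3 lower with p140 in HCT116 (median 0.08), 0 and 0 in HEK293E (median 0.13, with 2 at an unadjusted p under 0.05 by edgeR and 0 called by DESeq2), and 4 and 2 in 0.1% FBS (median 0.04). Of the 14 DROSHA-independent miRNAs tested in HCT116, 14 were higher with p140 (median 1.87), against 3 of 11 in HEK293E (median 0.57). In 0.1% FBS 2 of the 9 tested were higher and 3 lower. The epithelial markers numbered 1 higher and 2 lower of 5 with p140 in HCT116, 0 of 6 in HEK293E (1 at an unadjusted p under 0.05 by edgeR, 0 called by DESeq2), and 5 higher of 5 in 0.1% FBS. Their summed level was 86733 to 92617 CPM in 0.1% FBS against 68175 to 72146 CPM in 9.1% FBS, and 29106 to 34262 CPM with p140 against 23116 to 24716 CPM with full-length DROSHA in HCT116. Members of that sum went different ways with p140 in HCT116. miR-31-5p was higher (0.30, edgeR adjusted p = 0.022) and miR-200c-3p lower (-1.01, adjusted p = 0.011). miR-141-3p was at -0.70 (adjusted p = 0.14) and miR-194-5p at -0.33 (adjusted p = 0.3). Of the miRNAs of blood and other tissues 5 were tested with serum, and 3 were higher in 0.1% FBS: miR-486-5p of red blood cells (3.31, edgeR adjusted p = 4.5e-05), miR-142-3p of white blood cells (1.98, adjusted p = 0.0031) and miR-126-3p of endothelium (0.53, adjusted p = 0.0097). The summed level of that list overlapped, at 1967 to 3538 CPM in 9.1% FBS and 2080 to 3146 CPM in 0.1% FBS. In HEK293E with full-length DROSHA it was 3255 to 4223 CPM, against 961 to 1530 CPM in HCT116, and miR-486-5p was higher there (5.05, adjusted p = 9.5e-08) but lower with p140 (-1.79, adjusted p = 0.0032). The part of these markers in the results for miR-221 and miR-222 was not tested. The counts of calls follow TMM, and the median shifts given above for other scalings apply to them.

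Across the 18 replicated libraries the 2 main strands were each more like other miRNAs than like each other. Among 257 miRNAs of at least 100 CPM on average, those with the highest Pearson correlation of log2 CPM with miR-221-3p were miR-141-3p, miR-200c-3p and miR-200b-3p (r = 0.92 each), miR-429 and miR-200a-3p (r = 0.91 each), which together make up the epithelial miR-200 family. miR-222-3p ranked 23 there, with r = 0.63. For miR-222-3p the closest were miR-24-3p (r = 0.95), miR-23a-3p (r = 0.94), let-7b-5p, miR-145-5p and let-7a-5p (r = 0.93 each), and miR-221-3p ranked 41. The points share cell line, treatment and library composition, so these values describe the 6 groups and carry no test.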

How the data were processed

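The 20 libraries come from established human cell lines. Small RNA was prepared by gel selection and ligation to adaptors with random bases, with spike-in RNAs added, and run on a MiSeq, per the labels' protocols. The authors deposited whole-number counts per mature miRNA, not normalized. Tools named in the submitters' processing notes are STAR, cutadapt and bedtools, on hg38, with versions, settings and the handling of multiply mapped reads not given in the sources used here. For miRNAs listed under several hairpins the copy with the highest total was kept. The libraries then held 38288 to 2822317 reads, which sets the counting intervals (95%, Clopper-Pearson).

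Groups and replicate numbers came from the sample titles. Differences were tested across all miRNAs with edgeR 4.0.16 (TMM, quasi-likelihood F test, filterByExpr with a minimum count of 10, Benjamini-Hochberg threshold 0.05), after the code was tested on simulated data. DESeq2 1.42.0, no filter, library totals, scaling to the DROSHA-independent list, a replicate block, other sets of libraries and leaving out each library were alternatives. Ratios within a library used a pseudocount of 0.5 (alternatives 1, and the sum of both arms) and two-sided exact permutation tests. Same-numbered libraries deviated together in every pair of HCT116 p140 and full-length (r = 0.36 to 0.68), HEK293E (0.35 to 0.56), the serum groups (0.15 to 0.67) and full-length rescue against 9.1% FBS (0.15 to 0.37), which by the rule used here counts as pairing. Some pairs of different number deviated together as much (0.48 and 0.26 among replicates 1 and 2 of the serum groups, 0.37 and 0.30 in HCT116), so the pairing rests mostly on replicate 3 there. It is read from the data, not from the labels.

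The text names the 4 strands in every library, up to 4 of the most abundant members of each miRNA list, the 5 miRNAs most like each 3p strand, and at most 5 hairpin pairs nearest in abundance. The members, lists and tests were chosen with earlier results of these data known.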

Additional observations from a re-analysis of the deposited data

Results flagged for a closer look

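The p140 effect on miR-221-3p had opposite signs in the 2 lines: in CPM, each of the 3 same-numbered pairs was lower with p140 in HCT116 and each was higher in HEK293E. The mean log2 difference was -0.29 ± 0.19 (SD, n = 3) in HCT116 and 0.22 ± 0.18 in HEK293E, a gap of 0.51. The result was flagged by this pattern of signs, and how many other miRNAs show it was not counted. The smallest differences were -0.07 (HCT116, replicate 3) and 0.09 (HEK293E, replicate 1). edgeR's interaction test gave an adjusted p of 0.12 for the gap, where it called 3.3% of miRNAs. With the replicate number within each line as a block it gave an adjusted p of 0.0043, where 19.8% were called. In HEK293E alone the effect did not pass without the block (adjusted p = 0.15), and on the scale of the DROSHA-independent list it was below 0 in both lines.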

How the results depend on the processing

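Counts of called miRNAs moved by more than 1.5 times as follows. Scaling to the DROSHA-independent list gave 170 calls in place of 266 for p140 in HCT116, 216 in place of 110 in HEK293E, and 0 in place of 17 for the difference between lines. A replicate block gave 183 for HEK293E and 102 for the difference between lines.

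For single strands, DESeq2 put miR-221-3p in HCT116 at -0.28 (no longer called) and library totals put it at -0.30 (adjusted p = 0.071). Without a filter on low counts, p140 in HCT116 gave 0.11 for miR-222-3p and 0.11 for miR-222-5p, neither called, and the difference between lines turned to 0.14 and 0.094. The list scale turned these 4 values to -1.18, -1.14, 0.81 and 0.75. It also turned HEK293E to -0.42 (miR-221-3p), -0.64 (miR-221-5p), -0.37 (miR-222-3p) and -0.39 (miR-222-5p), and serum to -0.44 (miR-221-3p), -0.57 (miR-221-5p) and -0.27 (miR-222-3p). Library totals turned the same serum values to -0.21, -0.33 and -0.032. The fit of 18 libraries turned miR-221-5p with serum to -0.11 and left miR-222-3p at 0.20, not called. Between lines with full-length DROSHA, library totals gave -0.12 for miR-221-3p (not called) and 0.16 for miR-221-5p. Causes of these changes were not tested.

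With the replicate block, calls were gained by miR-221-3p (0.30), miR-222-3p (0.35) and miR-222-5p (0.32) in HEK293E, by miR-221-3p with serum (0.19) and, for the difference between lines, by miR-221-3p (0.62) and miR-221-5p (0.81). The block changed no other call of a strand. HCT116 and HEK293E libraries of the same number did not deviate together (r = -0.15, 0.19 and -0.09), and that block changed no call.

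Leaving out single libraries, or replicate 3 of both groups, gave these ranges where a call or sign changed. For p140 in HCT116 they were -0.59 to -0.36 for miR-221-3p, 0.19 to 0.47 for miR-222-3p and 0.28 to 0.43 for miR-222-5p. In HEK293E they were 0.18 to 0.46 for miR-221-3p, -0.043 to 0.24 for miR-221-5p and 0.28 to 0.54 for miR-222-3p, with 47 to 129 miRNAs called, the lowest without replicate 3 of both groups. With serum they were 0.15 to 0.25 for miR-221-3p, called at 0.20 without replicate 3 of both groups, and -0.035 to 0.14 for miR-221-5p. For the difference between lines they were 0.55 to 0.93 (miR-221-3p), 0.73 to 1.18 (miR-221-5p), -0.21 to 0.16 (miR-222-3p) and -0.19 to 0.10 (miR-222-5p), with 5 to 85 calls, the highest without p140 replicate 3 of HCT116.

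The ratio of the 2 hairpins with p140 in HCT116 stayed between -0.88 and -0.77 and the strand ratio of miR-222 with serum between 0.84 and 0.98 over the libraries left out. Other pseudocounts moved no ratio by more than its spread, nor did the sum of both arms. Depth limits the 5p strands in the knockout with GFP (4 and 8 reads).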
